A study of Mus musculus with 2 samples.

Results

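Laminins and integrins were examined as a group of genes in tooth and skin of newborn mice. Members were the genes whose name on the array was that of a laminin alpha, beta or gamma chain or of an integrin alpha or beta chain. Membership rested on the name alone, but the group was chosen with earlier results of these data known. The rule found 37 genes among 24323 named genes, namely 11 laminin, 18 integrin alpha and 8 integrin beta genes, and these were read by 51 of 55681 probes.

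Laminins are large glycoproteins of the basement membrane, each assembled from an alpha, a beta and a gamma chain. Integrins are receptors of the cell surface built from an alpha and a beta chain, and they hold cells to laminins, collagens, fibronectin and other matrix proteins or to counter-receptors on other cells. In the growing tooth a basement membrane separates the dental epithelium from the mesenchyme, and in the skin the basal keratinocytes are fixed to theirs by hemidesmosomes, in which the integrin made of Itga6 and Itgb4 binds an epithelial laminin that holds Lama3 and Lamb3.

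Total RNA of the tooth and of the skin of wild-type mice was hybridised to 1 Agilent array per tissue, both on the same slide. The labels gave postnatal day 0 for both tissues, the study's methods gave a stage 1 day later and spoke of tooth germs, and the labels were followed. The number of animals behind each array is not stated, and no mutation or treatment is named for either tissue. With 1 array per tissue no difference has a replicate check and no test was possible.

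Levels are given as the log2 of the processed intensity after subtraction of the 75th percentile of each array, which was an intensity of 428 for tooth and 276 for skin, and differences are skin minus tooth on this scale, so that a negative value is higher in tooth. The scatter of a difference was estimated from repeated spots of the same probe, as the root of the summed squares of each array's median SD. It was 0.08 for levels above 2, 0.12 between -2 and 2 and 0.28 below -2. No value was made for genes whose tooth and skin levels fall in different ranges. This scatter leaves out dissection, RNA preparation and labelling. The labelled tissues carried their markers: all 5 ameloblast genes, Amelx, Ambn and Enam among them, were detected in tooth and dim in skin, and the 5 suprabasal epidermal genes were higher in skin, with Flg at -3.21 in tooth and 9.69 in skin. The general epithelial markers were closer, since 6 of 7 were higher in skin, by at most 1.19, and Itga6, itself a member, differed by -0.20. With spike-in scaling, an alternative described with the counts, 4 of these 7 were higher in skin.

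Of the 37 members, 33 were well above background on both arrays and Itga2b on the skin array alone. Itgad, Itgae and Itgb8 were dim on both arrays and had no measurable difference. Among the 34 measured members, 25 were higher in tooth and 9 in skin, against 52.4% of all 17409 measured genes higher in tooth. A difference of at least 2-fold toward tooth was found for 14 members (41.2%), where the share of all genes was 15.5%. In the direction of skin 3 members (8.82%) passed 2-fold, against 14.2% of all genes. In either direction 17 members (50.0%) passed, against 29.6%. When the arrays were scaled on spike-in transcripts these counts became 21 and 1, with 32.4% and 9.03% of all genes. Spike-in scaling moved the median of all genes from -0.04 to -0.67, and a shift on the median probe moved it to -0.29. The 7 members that spike-in scaling added to those past 2-fold toward tooth were Itga9, Itga5, Itgb1, Itgb5, Itgb4, Lamc1 and Itga3, and Itga1 and Itga2b no longer passed toward skin.

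The members' median difference was -0.83. The 11 laminins had a median of -1.22 with 9 higher in tooth, the 7 measured integrin beta chains a median of -0.84 with all 7 higher in tooth, and the 16 measured integrin alpha chains a median of -0.30 with 9 higher in tooth. The alpha chains were also the most spread, from -5.57 to 3.45. At 4-fold, 8 members (23.5%) lay toward tooth against 6.29% of all genes. At 8-fold, 4 members (11.8%) did so, Lama1, Itga11, Itga10 and Itga4, against 2.73% of all genes. Itgal alone lay beyond 8-fold toward skin, where 4.69% of all genes did. In these bulk samples, fewer cells of a type and less RNA per cell cannot be told apart.

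**Figure D1:**
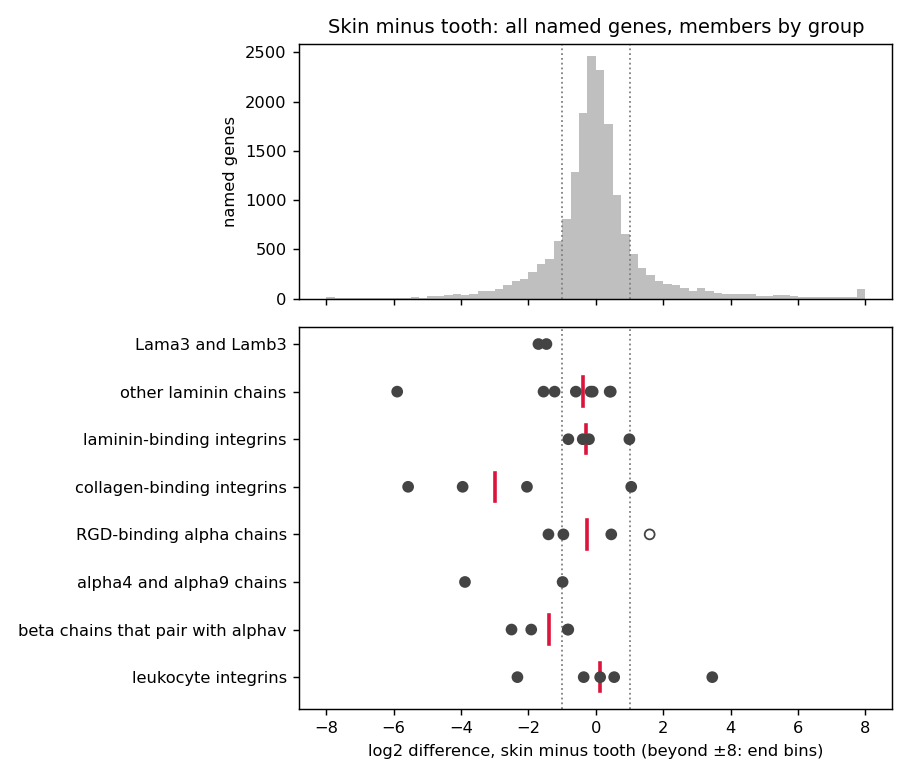
Differences of all named genes and of the members by functional group. The upper panel is a histogram of the log2 difference (skin minus tooth) over 17409 genes, and the lower panel has a point for each member gene shown with the median of each group of over 2 plotted genes as a bar and an open point for a gene that was dim on 1 array, and dotted lines mark 2-fold. The collagen-binding group spans from -5.57 to 1.05 and Lama3 and Lamb3 lie at -1.70 and -1.47.

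Lama3 and Lamb3, chains of the epithelial laminin that anchors hemidesmosomes, were both higher in tooth. Lama3, its alpha chain, had a level of 4.19 in tooth and 2.48 in skin, a 3.26-fold difference, or -1.70 on the log2 scale, and the other Lama3 probe gave -1.85. Lamb3, the beta chain, had 5.55 and 4.08, a difference of -1.47. The Lamb3 probe is shown because the value of this gene rests on it alone. It lies at chr1:195170009-195170068 of mm9, and its first 30 bases are given 5′ to 3′.
Lamb3: tgtatgaacacaaaacccaataaaaatctt

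Lama1, the alpha chain of early embryonic basement membranes, had the widest difference of the members. It was at 3.53 in tooth and -2.37 in skin, 59.5-fold higher in tooth, and held place 67 among all genes ranked from the tooth side. Its intensity was 4933 in tooth and 53.5 in skin, and it was well above background on both arrays. A single probe at chr17:68171924-68171983 carried this value, and its first 30 bases are printed here for that reason.
Lama1: atgttgaactaaagccacacggacaacaga

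The other alpha chains varied. Lama4, a chain of vessel walls and other mesenchymal tissue, had 1.85 in tooth and 0.29 in skin, a 2.93-fold difference. Among the 5 endothelial markers 3 were likewise at least 2-fold higher in tooth, namely Cdh5, Tie1 and Tek, the last dim in skin. Pecam1 and Kdr lay toward skin by 0.50 and 0.43, which became -0.12 and -0.19 with spike-in scaling. The summed level of the 5 was 31.4 in tooth and 38.3 in skin, in units of each array's 75th percentile. It came mainly from Kdr (4.78 and 5.21). The part of these markers in the Lama4 value was not tested. Lama5, the alpha chain of most mature epithelial basement membranes, was nearly level, at 4.79 and 4.69. Lama2, the chain of muscle basement membrane, had 1.93 in tooth and 2.34 in skin, differing by 0.41 that became -0.21 with spike-in scaling. All 6 muscle markers were at least 2-fold higher in skin, with a summed level of 4.23 in tooth and 36.7 in skin, Myog not being above background in tooth, and their part in the Lama2 value was not tested.

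Among the chains that combine with many alpha chains, Lamb1, the common beta chain, had 5.15 in tooth and 3.93 in skin, 2.34-fold higher in tooth and the member just inside 2-fold on that side. Lamc1, the common gamma chain, had 4.72 and 4.13, a difference of -0.59. Lamb2, the beta chain of muscle and vessel basement membranes, had 1.84 and 2.28, a difference of 0.44 that became -0.18 with spike-in scaling. Lamc3, a gamma chain of restricted distribution, differed by -0.16. Of these 4 genes Lamb1 passed 2-fold, and with spike-in scaling Lamc1 did as well.

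**Figure D2:**
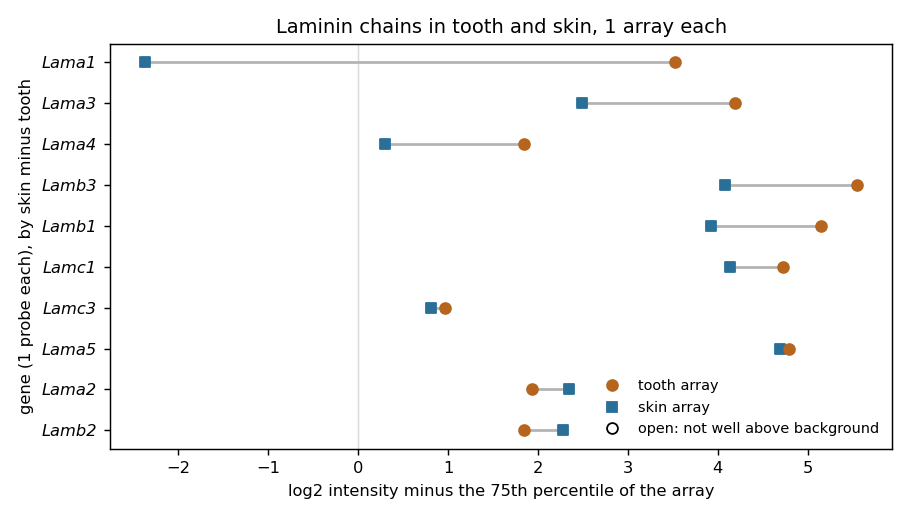
Levels of laminin genes on the tooth and skin arrays. Each line joins the log2 scaled level of a gene's brightest probe in tooth and in skin, and levels of different genes come from different probes and are not comparable. Lama1 has the longest line, from 3.53 in tooth to -2.37 in skin, and Lama5 the shortest.

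The integrins that bind laminin lay closer to 0 than Lama3 and Lamb3. Their median was -0.30 and none of the 4 passed 2-fold on the brightest probe. Each of them did under some alternative: Itgb4 with a median shift (-1.06) and spike-in scaling (-1.44), Itga3 with spike-in scaling (-1.01), Itga6 with the mean of its probes (-2.30) and Itga7 with the deposited value table (1.01). Itgb4, the beta chain of hemidesmosomes, had 4.56 in tooth and 3.74 in skin, differing by -0.82. Itga3, the alpha chain of a laminin receptor of basal epithelial cells, had 0.32 and -0.07, a difference of -0.39. Itga7, the laminin receptor chain of muscle, had -0.95 and 0.04, and its difference of 0.99 was just short of 2-fold in skin, where the 6 muscle markers were also higher, with a part in the value that was not tested.

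Itga6, the alpha partner of Itgb4, had 6.02 in tooth and 5.82 in skin on its brighter probe, a difference of -0.20. Its second probe had 4.93 and 0.54, a difference of -4.39, so the readings of the same gene lay 4.18 apart. Of the 3241 genes that had 2 probes, both detected in each tissue, 8 had a larger gap, and the median gap was 0.26. The second probe was designed on an Ensembl transcript and lies at chr2:71690633-71690692, upstream of the brighter probe at chr2:71694756-71694815. Both are printed because the value of Itga6 depends on the choice between them. The first 30 bases of the brighter probe are followed by bases 25 to 54 of the second, of which all 30 are in capitals because they also occur in probes of other names.
Itga6, brighter probe: gagaatgagaacctgggaggtcttgttgtt
Itga6, second probe: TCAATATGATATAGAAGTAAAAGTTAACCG

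The second Itga6 probe had a run of 25 bases in common with a probe named Gm8120 on chromosome 10, which read 1.18 in tooth and -1.48 in skin. It had 21 bases in common with an unnamed probe on chromosome 12, which read -1.43 in tooth and was not well above background in skin. These probes were thus also higher in tooth, with a difference of -2.67 for Gm8120. Whether the second Itga6 probe read RNA of other loci was not tested.

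The collagen-binding alpha chains had the lowest group median among the members with several genes, -2.999, with 3 of 4 at least 2-fold higher in tooth. Itga11, a collagen receptor chain of fibroblasts and other mesenchymal cells, had 4.25 in tooth and -1.32 in skin, 47.5-fold higher in tooth and at place 76 of all genes. Itga10, a collagen receptor chain known from cartilage, had 2.47 and -1.49, 15.5-fold higher in tooth. Itga2, a collagen receptor chain of epithelial cells and platelets, had -0.53 and -2.58, a 4.13-fold difference.

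These genes stood beside markers of the mineralised tissues, which also lay toward tooth, and of mesenchyme, which lay mostly but not all toward tooth. Of 6 mesenchymal markers, 3 were at least 2-fold higher in tooth (Col1a1 by -3.17, Pdgfrb by -2.61 and Pdgfra by -2.43), with a summed level of 604 in tooth and 154 in skin. Vim differed by -0.98. Toward skin lay Col3a1 by 0.13 and Twist1 by 0.62, which became -0.50 and -0.0007 with spike-in scaling. All 6 odontoblast and bone markers were at least 2-fold higher in tooth, with a summed level of 351 in tooth and 0.677 in skin, and 4 of them, Dspp, Dmp1, Phex and Sp7, were not above background in skin. The part of these cells in the integrin values was not tested.

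The Itga11 probe is printed as the only reading of that gene, at chr9:62631667-62631726. The Itga10 probes are printed to show that they are no independent readings: they lie at chr3:96468377-96468436 and chr3:96468383-96468442, overlap by 54 bases and gave differences of -3.95 and -4.03. In capitals are the bases of this overlap within the first 30 bases of each.
Itga11: gtttcatctgaacaatgtcatctgttcccc
Itga10, first probe: agtcccTCCTGGGGACTGTCATGGTGAGCA
Itga10, second probe: TCCTGGGGACTGTCATGGTGAGCAAATGGT

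Itga1, the fourth collagen-binding chain, had no single direction. One probe, which begins at base 683 of the transcript, had -0.73 in tooth and 0.32 in skin, differing by 1.05. The other, at base 3710, had 0.34 in tooth and -1.46 in skin, differing by -1.80. The probe at base 683 had the slightly higher mean and stood for the gene. With normexp background correction the brightest probe was chosen anew, and the reported difference became -1.41. The gap of 2.85 between these probes was exceeded by 29 of the 3241 genes. Both probes cover splice junctions, since their 60 bases span 4139 bases of chromosome 13 for the first (chr13:115821387-115825525) and 1655 for the other (chr13:115756765-115758419), and they are printed in full.
Itga1, probe at base 683: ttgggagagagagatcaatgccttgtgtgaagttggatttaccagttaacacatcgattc
Itga1, probe at base 3710: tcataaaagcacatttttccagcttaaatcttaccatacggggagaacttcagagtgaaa

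Itga4 and Itga9 form a pair of related alpha chains whose ligands include Vcam1 and tenascins. Itga4, which is carried by leukocytes and by embryonic mesenchyme, had 2.62 in tooth and -1.26 in skin, 14.8-fold higher in tooth. Its second probe read -2.63 in tooth and was dim in skin, which allowed a difference of at least 2.15-fold in the same direction. Itga9 had 1.17 and 0.19, a difference of -0.99, the member just outside 2-fold on the tooth side. The Itga4 probes are printed because they lie far apart in the transcript and gave the same direction. The brighter one lies at chr2:79173193-79173252 (first 30 bases), and the dimmer one crosses a splice junction at chr2:79153985-79155115 (whole).
Itga4, brighter probe: gtgtgtggaatgcattataaagatctaaca
Itga4, dimmer probe: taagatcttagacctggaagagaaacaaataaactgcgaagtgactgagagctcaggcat

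The alpha chains that recognise the RGD motif of matrix proteins were divided. Itgav, the chain shared by the vitronectin receptors, had 0.95 in tooth and -0.46 in skin, 2.65-fold higher in tooth, and its second probe gave -1.94. Itga5, the fibronectin receptor chain, had -1.10 and -2.07, a difference of -0.96. Itga8, a nephronectin receptor chain, had -0.76 and -0.30, and its difference of 0.46 became -0.17 with spike-in scaling. Of this group Itgav passed 2-fold toward tooth, joined by Itga5 with a median shift, quantile normalization and spike-in scaling.

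Itga2b, the alpha chain of the platelet integrin, was not well above background in tooth and had -2.82 in skin, at least 3.02-fold higher there. The platelet markers were not uniform. Of 4 that were measured 3 were at least 2-fold higher in tooth on the values as read, 2 of these were not above background in skin, and Pf4 was higher in skin by 0.78. Their summed level was 5.28 in tooth and 5.36 in skin, and their part in the Itga2b value was not tested.

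All measured integrin beta chains were higher in tooth. Itgb1, the partner of most alpha chains, had 2.55 in tooth and 1.71 in skin, differing by -0.84, and its other probe gave -0.91. Itgb5, a partner of Itgav, had 5.37 and 4.55, a difference of -0.82. Itgb1 and Itgb5 were thus below 2-fold, and both passed it with a median shift and with spike-in scaling.

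Itgb3, which pairs with Itgav on osteoclasts and with Itga2b on platelets, had 2.82 in tooth and 0.31 in skin, 5.67-fold higher in tooth. Its dimmer probe was not above background in skin and allowed at least 2.52-fold in the same direction. All 5 osteoclast markers were higher in tooth, 3 of them, Acp5, Ctsk and Ocstamp, by at least 2-fold and Calcr by a bound of at least 1.78-fold, with a summed level of 296 in tooth and 18.6 in skin and Calcr not above background in skin. Ctsk differed by -4.89 and Acp5 by -3.88, and the part of osteoclasts in the Itgb3 value was not tested. Itgb6, the epithelial chain that activates latent TGF-beta with Itgav, had 1.73 in tooth and -0.19 in skin, 3.78-fold higher in tooth, and its second probe gave -1.33. Itgb8, another partner of Itgav, had no measurable level.

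**Figure D3:**
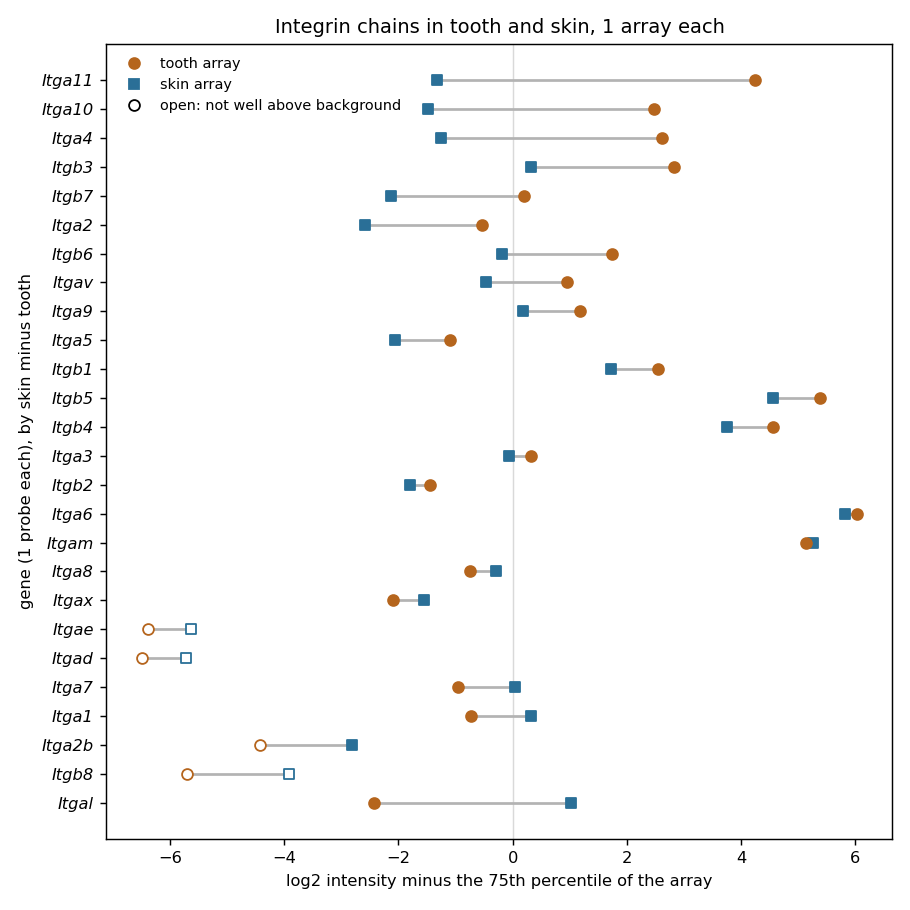
Levels of the 26 integrin genes on the tooth and skin arrays, ordered by their difference. Each line joins the log2 scaled level of a gene's brightest probe in tooth and in skin, open symbols mark values not well above background, and levels of different genes are not comparable. Every measured beta chain has its tooth point to the right of its skin point, whereas alpha chains lie on both sides.

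The integrins of leukocytes had a median difference of 0.13 over the 5 of 7 that were measured, which is the value of the bright Itgam probe described further on. The sign of this median turned to -0.36 without the genes whose probes disagree, -0.0074 with RefSeq probes, -0.12 with a median shift and -0.50 with spike-in scaling. Itgb7, the beta chain of gut-homing and intraepithelial lymphocytes, had 0.19 in tooth and -2.13 in skin, 5.02-fold higher in tooth. Itgb2, the beta chain common to leukocyte integrins, had -1.44 and -1.81, a difference of -0.36. Itgax, a chain of dendritic cells, had -2.09 and -1.55, and its difference of 0.54 became -0.08 with spike-in scaling. The general leukocyte markers had a median of -0.47, with 5 of 7 higher in tooth, a range from -1.33 to 1.48 and a summed level of 12.9 in tooth and 10.9 in skin, Ptprc not being above background in skin. Itgb2 and the median of the leukocyte markers thus lay slightly toward tooth, and Itgb7 further. Toward skin lay Itgax and, among the markers, Cd52 by 1.48 and Coro1a by 0.51, the last turning to -0.12 with spike-in scaling. Itgal lay toward skin on 1 probe, while its RefSeq probe detected in both tissues was level at -0.01.

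Itgal, the alpha chain of the lymphocyte integrin that binds Icam1, had the widest difference toward skin, but on 1 of its 3 probes. That probe had -2.43 in tooth and 1.02 in skin, differing by 3.45. The 2 probes designed on the RefSeq mRNA gave -0.01 and a dim reading not well above background in skin. The deviating probe was designed on a cDNA clone and begins at base 4428 of it, yet lies at chr7:134474711-134474767, before the RefSeq probes at chr7:134477064-134477123 and chr7:134477160-134477219. T-cell markers were higher in skin in 3 of 3 measured, with a median of 0.84, and Cd3g was dim on both arrays. Their summed level was 12.7 in tooth and 22.7 in skin. It came mainly from Cd3e (2.46 and 3.29) and Thy1 (2.84 and 3.68), since Cd3d was not above background in tooth and at -2.73 in skin. The part of these markers in the Itgal value was not tested. The first 30 bases of each probe are printed, since the probes disagree.
Itgal, cDNA clone probe: gtcccactgctctgtcttttattaacaatg
Itgal, first RefSeq probe: tggggaagagaccaaagatatgggctgtct
Itgal, second RefSeq probe: acttgagagccctggctctgaccagcttca

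Itgam, the alpha chain of the macrophage and granulocyte integrin, had 5.14 in tooth and 5.26 in skin on its brightest probe, a difference of 0.13 that became -0.12 with a median shift and -0.50 with spike-in scaling. Of its other probes, one was detected in both tissues and read -2.50 in tooth and -1.77 in skin, with a difference of 0.74, and the other was at -4.02 in tooth and not well above background in skin. The bright probe begins with 10 CA units, shown in capitals. Each of the 22 probes on the array that hold this repeat of 20 bases was well above background on both arrays, with a median of 4.41 in tooth and 4.50 in skin, where the medians over all probes were -3.48 and -3.23. The macrophage markers had a median of 0.21 (-0.41 with spike-in scaling), with 3 of 5 higher in skin, a summed level of 27.3 in tooth and 18.5 in skin and none below background. Whether the bright probe read RNA of Itgam was not tested.
Itgam, bright probe: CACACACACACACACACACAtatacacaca
Itgam, probe near the 5′ end: tgttaaccagacaggtgccctctaccagtg
Itgam, remaining probe: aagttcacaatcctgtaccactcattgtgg

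Probes of the same gene otherwise gave like readings. Of the 12 members with several probes, 8 had differences within 2-fold of each other, with gaps from 0.07 for Itga10 and Itgb1 to 0.72 for Itga4. The Itga10 probes overlap, so their small gap is no independent check. The gaps of Itga4 and Itgb3 include a skin value not well above background. The remaining 4 were Itga1, Itga6, Itgal and Itgam, all of them integrin alpha chains. Among the 3241 genes with exactly 2 probes detected in each tissue, 8.98% had a gap over 2-fold. The member gaps are not measured alike, since they also take in probes dim on 1 array and genes with 3 probes. Itgam passed 2-fold only through its probe not well above background in skin (-0.27), set against 0.74 for another probe. When these 4 genes were left out, the integrin alpha median moved from -0.30 to -0.98 and the number of members at least 2-fold higher in skin from 3 to 1, which was Itga2b. The laminin and beta chain medians did not rest on them.

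**Figure D4:**
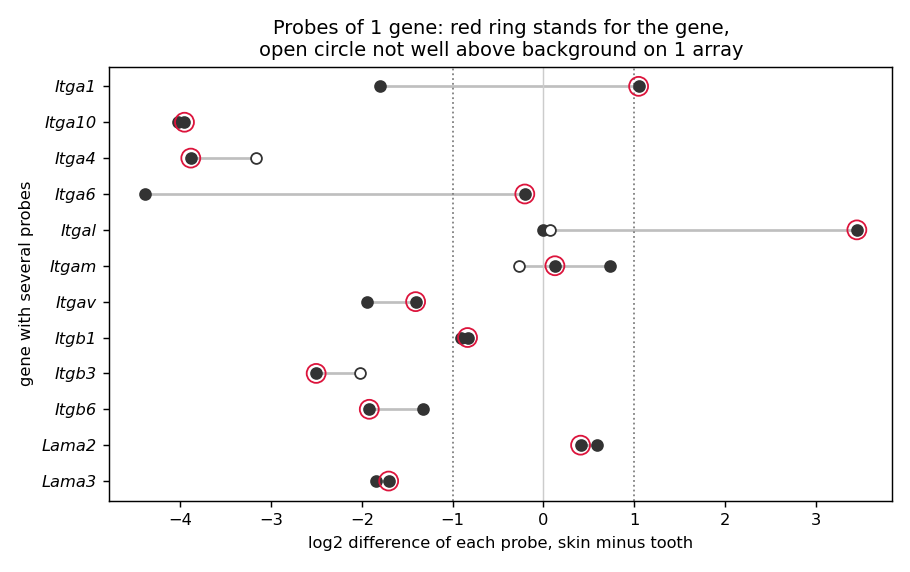
Difference given by each probe of the 12 members with several probes. The x axis is the log2 difference (skin minus tooth), each point is a probe, a red ring marks the probe that stood for the gene, dotted lines mark 2-fold and open points were not well above background on 1 array. Itga6, Itgal and Itga1 have probes 4.18, 3.46 and 2.85 apart, and most other genes have theirs close together.

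Genes that work with the members were grouped by role. For comparison, 15.5% of all genes passed 2-fold toward tooth and 14.2% toward skin, and their median was -0.04. With spike-in scaling these values were 32.4%, 9.03% and -0.67, and with a median shift 20.1%, 11.6% and -0.29. The partners of hemidesmosomes and anchoring fibrils lay toward skin where Lama3 and Lamb3 lay toward tooth. Their median was 0.84, and 6 of 7 were higher in skin (5 of 7 with spike-in scaling, where the median was 0.22). Toward skin 2 of the 7 (28.6%) passed 2-fold, against 14.2% of all genes, and none did toward tooth. With spike-in scaling none passed toward skin and 1 toward tooth. Dst, a plakin linking keratins to the hemidesmosome, differed by 1.33, Krt14, a keratin of basal cells, by 1.19 and Krt5, its partner, by 0.94. Cd151, a tetraspanin bound to laminin-binding integrins, was the exception with -0.95.

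The other basement membrane genes had a median of -0.53, with 11 of 16 measured higher in tooth. At least 2-fold higher were 6 (37.5%) in tooth and 3 (18.8%) in skin, against 15.5% and 14.2% of all genes. With spike-in scaling the median was -1.16, and 9 and 2 passed. Npnt, the nephronectin ligand of Itga8, had 1.82 in tooth and -0.77 in skin, differing by -2.59. Nid2, which links laminin to collagen networks, differed by -2.28 and Fras1, a protein under epithelia, by -2.13. Toward skin, Col4a6 and Col4a5, both chains of type IV collagen, differed by 2.76 and 1.51 and Col4a4 by 0.72. Egfl6, a matrix protein of hair follicles, was not well above background in tooth and at least 4.64-fold higher in skin.

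Other laminin receptors and processing genes had a median of 0.18, with 4 of 9 higher in tooth. At least 2-fold higher were 2 (22.2%) in tooth and 1 (11.1%) in skin, near the 15.5% and 14.2% of all genes. With spike-in scaling the median was -0.44, with 8 of 9 higher in tooth, 4 at least 2-fold and none in skin. In that setting the median of all genes was -0.67, further toward tooth, and 32.4% of them passed 2-fold toward tooth. A median shift gave the list a median of -0.06, against -0.29 for all genes. Ntn4, a netrin that binds laminin gamma chains, differed by -1.43, Mmp14, a membrane protease that cleaves laminin, by -1.36 and Bcam, a receptor for laminin, by -0.68. Sdc4, a syndecan, differed by 1.44, Tll1, a protease of the Bmp1 family, by 0.56 and Dag1, the dystroglycan receptor, by 0.40, the last 2 turning to -0.06 and -0.23 with spike-in scaling.

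Among 21 genes of integrin activation and adhesion sites the median was -0.62. This is the value as read of Fermt3, which was dim in skin, and with dim values at their bound the median was -0.53. At least 2-fold higher were 5 (23.8%) in tooth and 2 (9.52%) in skin, against 15.5% and 14.2% of all genes. The median and these counts became -0.87, 9 and 1 with a median shift and -1.25, 12 and 1 with spike-in scaling. Toward tooth 20.1% and 32.4% of all genes passed in these settings. Bcar1, a docking protein at adhesions, had 3.24 in tooth and 1.02 in skin, differing by -2.22. Fermt2, a kindlin that activates integrins, differed by -1.27 and Kank2, a talin-binding protein, by -1.24. Itgb1bp2, a muscle protein that binds Itgb1, differed by 3.57, Lims2, a partner of Ilk, by 1.02 and Kank1 by 0.92. Parvb, another partner of Ilk, was dim in skin and its tooth level exceeded that by at least 9.01-fold. The wide values in skin thus included a gene of muscle, whose markers were higher there as given above.

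The ligands of integrins had a median of -0.84 over 19 genes. At least 2-fold higher were 8 (42.1%) in tooth and 2 (10.5%) in skin, against 15.5% and 14.2% of all genes. The median became -1.09 with a median shift and -1.47 with spike-in scaling, and 11 and 12 genes passed toward tooth. Ibsp, a bone sialoprotein with an RGD motif, had 5.94 in tooth and -1.49 in skin, differing by -7.43, and it is also among the bone markers. Tnn, a tenascin, had 2.15 and -3.50, a difference of -5.64. Spp1, another RGD protein of bone, was dim in skin, and its tooth level was higher by at least 55.0-fold. Ccn3, a matricellular ligand, was at least 22.1-fold higher in skin, and Vtn, vitronectin, at least 2.34-fold. Among ligands measured on both arrays the highest differences were 0.56 for Ltbp1, which anchors latent TGF-beta, 0.51 for Postn, periostin, and 0.33 for Ccn1, and all 3 were below 0 with spike-in scaling.

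**Figure D5:**
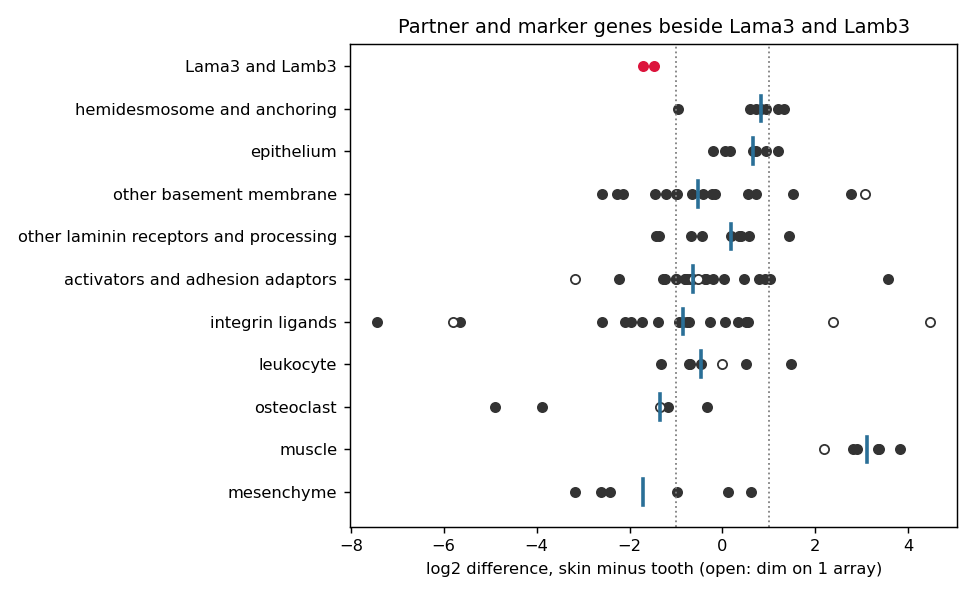
Differences of Lama3 and Lamb3 (red), of 5 lists of genes that work with laminins and integrins, and of 5 cell marker lists. The x axis is the log2 difference (skin minus tooth), each point is a gene, bars are medians of the lists, dotted lines mark 2-fold and open points were dim on 1 array. The hemidesmosome list has its median at 0.84 and the ligand list at -0.84.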

How the data were processed

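The authors deposited linear spot intensities made with the Agilent Feature Extraction software, version 10.7.3.1 per the labels, after background subtraction and removal of trends within each array. A value table was also deposited and holds the ratio of processed intensity over 1 factor per array, with no centring. The study's methods named GeneSpring, removal of very low signals and a percentile shift.

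From the deposited intensity, outlier spots (137 in tooth, 146 in skin, none of a member) were removed, spots of a probe were averaged as log2 and the 75th percentile of the non-control probes was subtracted. A probe counted as well above background when over 50% of its spots were so called, which held for 56.7% of probes in tooth and 52.5% in skin. No spot was saturated. The brightest probe stood for a gene, which entered when well above background on at least 1 array. A gene dim on the other array was given as a bound against the lowest signal called there (-4.52 in tooth, -3.73 in skin) or its own value if higher. The number of arrays limits the precision, and 1 array per tissue allowed no test. Summed marker levels add linear scaled values.

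Members and lists were chosen with earlier results of these data known. Members were named, with the 3 widest differences per direction of each partner list and the first detected markers of each cell type list, and a few further markers and genes with bounds were named after their values were seen. The values of 1 laminin gene are not reported here, and it remains in counts and medians. Icap1 was not found on the array under that name. Of the cell type lists not used beside a result, the median was 6.39 for melanocyte, 1.67 for mast cell, 0.19 for Schwann and -2.23 for smooth muscle genes, and the Langerhans gene Cd207 was dim on both arrays. Probe coordinates are those of the file headers (mm9), and exon or UTR positions were not analysed here. Alternatives were 10 planned settings and 2 chosen after seeing the data. Python 3.11.15, pandas 2.3.3, numpy 2.4.6, R 4.3.3 and limma 3.58.1 (normexp, offset 50) were used. The scaling and the 2-fold calls were tested on simulated data. These data copied the detection calls of the tooth array, so the bounds for dim genes were not covered.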

Additional observations from a re-analysis of the deposited data

How the results depend on the processing

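The number of members at least 2-fold higher in tooth was between 14 and 21 over 12 alternative settings. The share of all genes ran from 9.60% with normexp to 32.4% with spike-in scaling. Of 403 recomputed differences of single members, 350 shifted by no more than 0.26, the median gap between probes of a gene. This tally is no check of stability. Settings that change only which genes enter repeat the main difference, and a median shift moves every gene by -0.249. Spike-in scaling moves every gene by -0.625, so every member shifted by more than 0.26. Signs turned in 9 values of 7 genes, and among members past 2-fold they did so for Itga1 at -0.38 with the mean of detected probes and at -1.41 with normexp, and Itgal at -0.0074 with RefSeq probes only. The number at least 2-fold higher in skin was 1 with spike-in scaling, with normexp and without genes whose probes disagree. The share of all genes past 2-fold toward skin also fell with spike-in scaling, from 14.2% to 9.03%, and it was lower with normexp as well. Spike-in scaling moved the medians to -2.33 for epithelial laminin chains, -1.85 for laminins, -0.92 for integrin alpha chains and for laminin-binding integrins, -1.46 for beta chains and -0.50 for leukocyte integrins. With the mean of detected probes the alpha median was -0.68 and the laminin-binding median -0.60, and with no filter the alpha median was -0.038 and the leukocyte median 0.54. Leaving out genes whose probes disagree gave -0.98 for alpha chains and -0.36 for leukocyte integrins. The probe that stood for a gene was chosen anew in each setting, and the Itgal value of -0.0074 is the main reading of a RefSeq probe. Apart from this choice and the scaling, which shifts every gene, the cause was not tested. No paired analysis was possible because there is 1 array per tissue and the labels carry no replicate numbers. Dim probes limit Itga2b, Itgad, Itgae and Itgb8.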

Other observations

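Itgbl1, an integrin beta-like gene outside the rule for members, had a level of -0.48 in tooth and -2.31 in skin, a log2 difference of -1.83 (skin minus tooth). Itgb2l was dim on both arrays.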
